A study of Zea mays with 16 samples.

Results

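The step between moderate and severe waterlogging was compared between the roots of 2 maize inbreds, HKI1105, which tolerates waterlogging, and V-372, which is susceptible. For each probe set the change of HKI1105 (severe minus moderate) was taken minus the change of V-372 (severe minus moderate), so that a positive difference means that the transcript moved upward, relative to V-372, in HKI1105. The comparison used 8 of the 16 arrays of the series, 2 for each of the groups HKI1105 severe, HKI1105 moderate, V-372 severe and V-372 moderate, and no control array entered it. It covered 17621 of the 17734 probe sets of the Affymetrix GeneChip Maize Genome Array, as 113 probe sets for control RNAs (those named AFFX) were left out. The values are log2 GCRMA levels, that is, background-corrected and normalised hybridization signals on the log2 scale.

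Severe roots were taken 35 days after sowing, after 7 days under standing water, and moderate roots 32 days after sowing, after 4 days. Plants of both lines grew in pots of sandy loam whose drainage holes were, according to the labels, closed on day 29. The labels and the study's methods differ on when the holes were reopened for recovery. Stage and plant age changed together in each line, and no unstressed root was sampled on either day, so that stress and age cannot be told apart. The labels describe the 2 arrays of a group as biological replicates and the study's methods describe technical ones. The p-values here take in only the spread between such arrays. That spread was estimated over all 16 arrays, so the control and recovery arrays entered the standard errors and p-values too. Each line is a single inbred, so a difference between the lines is a difference between these 2 genotypes.

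Standing water cuts off the oxygen supply of roots, and cells then make ATP by glycolysis and ethanolic fermentation, with pyruvate decarboxylase and alcohol dehydrogenase as the working enzymes. Plant haemoglobins remove nitric oxide that builds up when oxygen is short, and trapped ethylene acts as the early signal of flooding. Maize roots also defend themselves with chitinases and other pathogenesis-related (PR) proteins and with terpenoid phytoalexins made from copalyl diphosphate and from sesquiterpene precursors.

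Arrays of the same group correlated at 0.997 to 0.999 over probe sets, and the medians of the 8 arrays lay between 7.09 and 7.18. The background correction leaves a floor at 2.01, and 31.0% to 32.2% of the probe sets had both arrays of a group within 1 log2 unit of it. Such a group is called at the floor here, and a fold that starts from it has no certain size. A total of 4879 probe sets were at the floor in all 4 groups. HKI1105 moderate replicate 2 had a weak 5′ signal: an RNA of dap added before labelling read 8.54 log2 units higher at its 3′ than at its 5′ end in this array, against 4.21 to 5.10 in the other 7. For the maize ubiquitin transcript the same measure was 5.82 and 5.59 in the V-372 severe arrays, against 3.99 to 5.49 in the rest of the comparison. For maize Gapdh it was highest in V-372 severe replicate 1 (9.39) and HKI1105 moderate replicate 2 (9.25). The part of this in the differences was not tested.

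Of 15 probe sets for root-preferred genes, 7 were at the floor in HKI1105 severe roots, 7 in HKI1105 moderate roots, 9 in V-372 severe roots and 7 in V-372 moderate roots. The probe sets of the nicotianamine synthase genes and of the silicon transporter gene Lsi6, and 1 of the 3 probe sets of Lsi1, were at the floor in all 4 groups. A set of piip1 (a cortical cell protein gene) and the O-methyltransferase gene zrp4 were at the floor in V-372 severe roots. The summed level of the list was 13.47 to 13.51 in HKI1105 severe, 14.41 to 14.48 in HKI1105 moderate, 13.95 to 13.96 in V-372 severe and 14.31 to 14.35 in V-372 moderate arrays. Genes of leaf photosynthesis were measured in all 4 groups and were highest in V-372 severe roots. The 24 light harvesting and photosystem probe sets summed to 14.20 in both HKI1105 severe arrays, 15.01 to 15.05 in HKI1105 moderate, 17.00 to 17.06 in V-372 severe and 13.64 to 13.71 in V-372 moderate arrays. The labels give root tissue and do not say which part of the root was taken. In such samples, fewer cells of a type and less RNA per cell cannot be told apart.

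The median absolute change was 0.16 log2 units in HKI1105 and 0.27 in V-372. Over the 17621 probe sets the changes of the lines correlated at 0.05, a description only, since the probe sets share their arrays. In HKI1105 3087 probe sets rose and 2450 fell (limma, Benjamini-Hochberg adjusted p under 0.05; 17.5% and 13.9%). In V-372 3133 rose and 4971 fell (17.8% and 28.2%).

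The difference between these changes passed the test for 7450 probe sets (42.3%). It was positive for 4499 (25.5%) and negative for 2951 (16.7%). The median absolute difference was 0.35, with a median SE of 0.14. At the thresholds of the study (p of 0.001 or less and at least 5-fold, which is 2.32 log2 units) 623 probe sets had a positive difference (3.54%) and 950 a negative one (5.39%), and without HKI1105 moderate replicate 2 the counts were 627 and 936. These 1573 probe sets are described first.

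**Figure D1:**
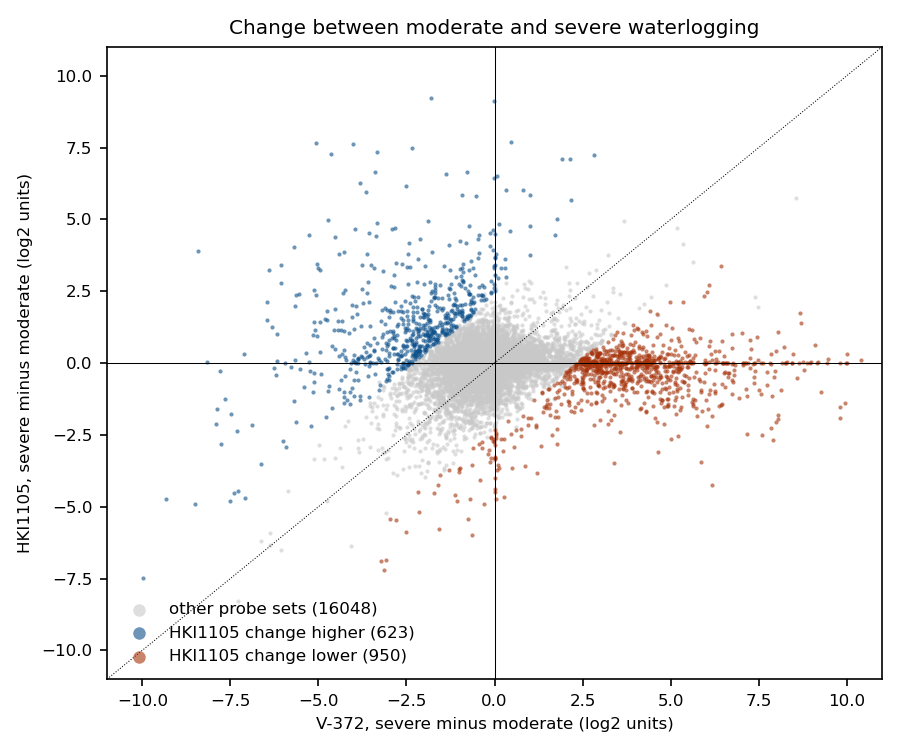
Change between severe and moderate waterlogging (severe minus moderate, log2 units) in HKI1105 (vertical axis) and V-372 (horizontal axis), each point a probe set. The 623 probe sets with a positive and the 950 with a negative difference at the study's thresholds lie on either side of the dotted line of equal change, the 950 mostly to the right, along the line of no change in HKI1105.

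Of the 623 probe sets with a positive difference at these thresholds, 409 (65.7%) rose in HKI1105 and fell in V-372, and 45 fell in both lines. In 114 more only the fall in V-372 passed the test, and in 46 only the rise in HKI1105. The median level of the 623 was 8.18 in HKI1105 severe and 6.65 in HKI1105 moderate roots, against 5.90 in V-372 severe and 8.53 in V-372 moderate roots. The order of the lines was thus turned between the stages, and in 283 probe sets it was turned with a gap of at least 1 log2 unit at both. At least 1 group was at the floor for 114 of the 623 (18.3%). Over all 4499 positive differences at adjusted p under 0.05 the make-up was another: 1830 (40.7%) fell in V-372 with no change in HKI1105 that passed, and 1304 (29%) rose in HKI1105 and fell in V-372.

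Most of the negative side came from rises in V-372. Of the 950 probe sets, 536 (56.4%) rose in V-372 while their change in HKI1105 did not pass the test, 261 (27.5%) fell in HKI1105 and rose in V-372, and 92 rose in both lines, more in V-372. Their median level was 5.86 in HKI1105 severe and 6.52 in HKI1105 moderate roots, against 9.68 in V-372 severe and 5.58 in V-372 moderate roots. At least 1 group was at the floor for 288 of them (30.3%), most often V-372 moderate (253).

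A gene name or description could be given to 1531 of the probe sets. Without labels such as hypothetical or unknown 1446 remained, and 301 of the 1573 had such a usable label. The genes named here are those with the most positive and most negative differences and those that lead each gene list. List counts below are to be read beside the shares of all probe sets: 25.5% had a positive and 16.7% a negative difference. In HKI1105 17.5% of all probe sets rose and 13.9% fell, and in V-372 17.8% rose and 28.2% fell.

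Some genes of phytoalexin synthesis were among those with the most positive differences, by which they were chosen. No list of this pathway was counted, so the share of its other members is not given. CPPS2 (also an2), the ent-copalyl diphosphate synthase that opens the diterpenoid branch, had the most positive difference of all probe sets. Its levels were 10.62 and 10.72 in HKI1105 severe and 2.92 and 3.08 in HKI1105 moderate arrays, and 5.58 and 5.74 in V-372 severe and 10.74 and 10.75 in V-372 moderate arrays. HKI1105 severe and V-372 moderate roots were at the same height, and HKI1105 moderate roots were the lowest of the 4 groups. CPPS2 rose by 7.67 log2 units in HKI1105, whereas it fell by 5.08 in V-372, a difference of 12.75 ± 0.10 (SE; limma, adjusted p = 2.86e-12).

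A cytochrome P450 gene that RefSeq also lists as CYP71Z16, a family that oxidises terpenoid phytoalexins, followed the same order. It read 11.22 and 11.38 in HKI1105 severe and 3.26 and 4.06 in HKI1105 moderate arrays, against 6.36 and 6.39 in V-372 severe and 10.35 and 10.43 in V-372 moderate arrays (difference 11.66 ± 0.30, adjusted p = 6.84e-09). The sesquiterpene synthase gene tps6, of the acidic phytoalexin branch, read 13.74 and 13.72 in HKI1105 severe and 6.05 and 6.43 in HKI1105 moderate arrays, against 9.74 and 9.56 in V-372 severe and 11.79 and 12.20 in V-372 moderate arrays. Here HKI1105 severe roots stood above all others, and tps6 rose by 7.49 log2 units in HKI1105, whereas it fell by 2.35 in V-372 (difference 9.83 ± 0.27, adjusted p = 1.07e-08).

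The PR proteins, chitinases and proteinase inhibitors went the same way. Of 16 probe sets 11 had a positive and 1 a negative difference (68.8% and 6.25%, beside 25.5% and 16.7% of all probe sets), with a median of 3.32. In HKI1105 7 rose and 4 fell, and in V-372 1 rose and 10 fell. A gene described as PR protein 5, a thaumatin-like protein, read 12.96 and 13.05 in HKI1105 severe and 3.75 and 3.79 in HKI1105 moderate arrays, against 9.58 and 9.61 in V-372 severe and 11.38 and 11.39 in V-372 moderate arrays. No 2 of the 4 groups overlapped, and the difference was 11.02 ± 0.10 (adjusted p = 1.21e-11), of which 9.23 was the rise in HKI1105.

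The chitinase gene chiA, whose enzyme cuts fungal walls, read 10.02 and 10.00 in HKI1105 severe and 2.73 and 2.75 in HKI1105 moderate arrays, the second group at the floor. It read 3.55 and 4.36 in V-372 severe and 8.65 and 8.56 in V-372 moderate arrays (difference 11.92 ± 0.63, adjusted p = 6.72e-07). In the chitinase gene chn1 all levels were high, with 13.91 and 13.92 in HKI1105 severe and 10.45 and 10.50 in HKI1105 moderate arrays, against 10.70 and 10.83 in V-372 severe and 13.38 and 13.43 in V-372 moderate arrays. The order of the lines was exchanged between the stages, far from the floor (difference 6.08 ± 0.14, adjusted p = 3.48e-09).

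The PR5 gene pr5 and the PR10 gene, whose product resembles ribonucleases, had differences of 8.20 ± 0.40 and 8.02 ± 0.16 (adjusted p = 4.36e-07 and 1.97e-09). The glucanase gene geb1, for an enzyme that cuts callose and fungal glucans, moved in HKI1105 only by this test: it read 11.17 and 11.10 in HKI1105 severe arrays and 2.01 in both HKI1105 moderate arrays, against 4.89 and 4.90 in V-372 severe and 4.84 and 4.99 in V-372 moderate arrays. Its difference of 9.14 ± 0.15 (adjusted p = 6.47e-10) starts from the floor in HKI1105 moderate roots. The maize proteinase inhibitor gene sci1 was the member with a negative difference (-1.40). It fell by 1.64 log2 units in HKI1105, beside a change of -0.24 in V-372 that did not pass the test. The wound-induced inhibitor gene wip1 fell by 3.11 log2 units in both lines, with a difference of 0.00.

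**Figure D2:**
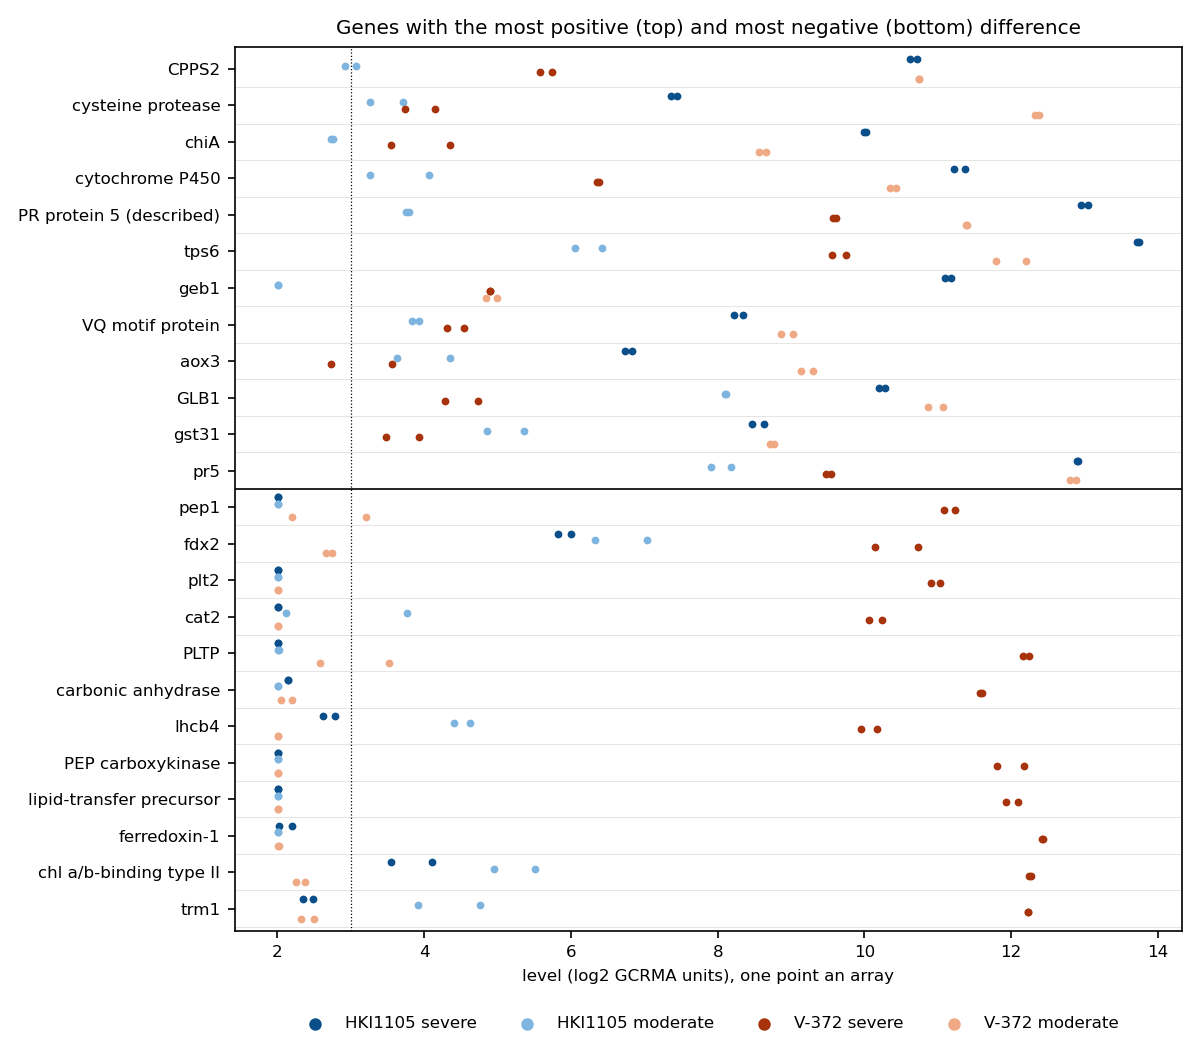
Level of the 12 genes with the most positive difference (above the line) and the 12 with the most negative (below it), on the horizontal axis in log2 GCRMA units, each point an array. Dark blue marks HKI1105 severe, light blue HKI1105 moderate, dark red V-372 severe and light red V-372 moderate, and the dotted line is the limit of the floor at 3.01. In CPPS2 the HKI1105 severe arrays (10.62 and 10.72) stand with the V-372 moderate arrays (10.74 and 10.75), while below the line the V-372 severe arrays stand apart from the other 3 groups.

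In V-372 genes of fermentation and both haemoglobins fell between the stages, while in HKI1105 both haemoglobins rose. Of 9 fermentation probe sets 6 had a positive and 0 a negative difference (66.7% and 0%, beside 25.5% and 16.7% of all probe sets). Their median was 1.47, and 7 fell in V-372 against 3 in HKI1105. The haemoglobin gene GLB1 read 10.29 and 10.19 in HKI1105 severe and 8.09 and 8.11 in HKI1105 moderate arrays, against 4.29 and 4.74 in V-372 severe and 11.07 and 10.86 in V-372 moderate arrays. It was the lowest in V-372 severe roots, where it fell by 6.45 log2 units, and it rose by 2.14 in HKI1105 (difference 8.59 ± 0.26, adjusted p = 2.20e-08). A further probe set, matched to the name GLB1 without regard to letter case, had a difference of 0.00. It is not in the haemoglobin list of 2 probe sets and may belong to another gene.

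The related haemoglobin gene Hb2 read 5.70 and 5.60 in HKI1105 severe and 2.33 and 2.17 in HKI1105 moderate arrays, against 2.06 in both V-372 severe arrays and 5.82 and 5.32 in V-372 moderate arrays (difference 6.91 ± 0.21, adjusted p = 2.19e-08). HKI1105 moderate and V-372 severe roots were both at the floor. For pdc2, a pyruvate decarboxylase gene, the levels were 5.69 and 5.41 in HKI1105 severe and 6.86 and 6.77 in HKI1105 moderate arrays, against 3.15 and 2.69 in V-372 severe and 10.58 and 10.57 in V-372 moderate arrays. It fell by 1.27 log2 units in HKI1105, and in V-372 it fell by 7.66 (difference 6.39 ± 0.23, adjusted p = 5.94e-08). A second probe set of pdc2 differed by 5.70 and 2 more did not pass the test.

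Alcohol dehydrogenase, the last enzyme of ethanolic fermentation, differed less. Its gene adh1 had 13.87 and 13.89 in HKI1105 severe and 13.93 and 13.98 in HKI1105 moderate arrays, against 13.29 and 13.37 in V-372 severe and 14.43 and 14.34 in V-372 moderate arrays, so that it remained among the strongest signals of the array (difference 0.98, adjusted p = 5.50e-05). The gene adh2 rose by 0.73 log2 units in HKI1105, whereas it fell by 1.53 in V-372 (difference 2.26 ± 0.13, adjusted p = 1.22e-06). The alternative oxidase gene aox3, for the enzyme that bypasses the late steps of mitochondrial respiration, read 6.83 and 6.74 in HKI1105 severe and 3.62 and 4.35 in HKI1105 moderate arrays, against 3.56 and 2.74 in V-372 severe and 9.13 and 9.30 in V-372 moderate arrays (difference 8.87 ± 0.39, adjusted p = 2.09e-07).

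Of 20 probe sets for glycolysis and sucrose breakdown 8 had a positive and 3 a negative difference (40% and 15%), with a median of 0.18. The cell wall invertase gene incw1 rose by 1.85 log2 units in HKI1105, whereas it fell by 2.97 in V-372 (difference 4.81 ± 0.14). The enolase gene eno1, of lower glycolysis, fell by 2.85 log2 units in V-372, beside a change of 0.31 in HKI1105 (adjusted p = 0.359; difference 3.16 ± 0.30), and its 2 other probe sets differed by only 0.15 and 0.57. In the other direction, the sucrose synthase gene sus2 rose in both lines, by 2.11 in HKI1105 and 5.35 in V-372 (difference -3.24 ± 0.25).

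Of 11 probe sets for ethylene synthesis and response 8 had a positive and 1 a negative difference (72.7% and 9.09%), with a median of 1.66. A gene described as ACC oxidase, the enzyme that releases ethylene, changed in HKI1105 only by this test. It read 10.73 and 10.74 in HKI1105 severe and 4.07 and 4.36 in HKI1105 moderate arrays, against 9.05 and 9.16 in V-372 severe and 9.03 and 9.06 in V-372 moderate arrays (difference 6.46 ± 0.17, adjusted p = 8.93e-09). HKI1105 moderate roots were the low group, and the V-372 groups overlapped. The ACC synthase gene acs7, for the step before, rose by 2.12 log2 units in HKI1105, whereas it fell by 2.84 in V-372 (difference 4.96 ± 0.40). The ethylene-responsive factor genes EREB20 and EREB179 differed by 4.35 ± 0.23 and 3.89 ± 0.23, the second by a fall to the floor in V-372 severe roots.

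Of 24 jasmonate and lipoxygenase probe sets 15 had a positive and 3 a negative difference (62.5% and 12.5%). In HKI1105 15 rose and 0 fell, and in V-372 7 rose and 11 fell. The lipoxygenase gene lox3, which belongs to the 9-lipoxygenases and so makes no jasmonate precursor, read 12.21 in both HKI1105 severe arrays and 9.77 and 9.76 in HKI1105 moderate arrays, against 7.69 and 7.80 in V-372 severe and 11.39 and 11.36 in V-372 moderate arrays. All 4 groups were apart by more than their spread (difference 6.08 ± 0.08, adjusted p = 7.65e-11). Another lipoxygenase gene, lox1, differed by 4.74 ± 0.11 and its second probe set by 4.20.

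The 12-oxo-phytodienoate reductase genes of the same list went both ways. opr1 read 4.87 and 4.83 in HKI1105 severe and 4.70 and 4.79 in HKI1105 moderate arrays, against 2.02 and 2.01 in V-372 severe and 7.66 and 7.69 in V-372 moderate arrays (difference 5.77 ± 0.07, adjusted p = 3.94e-11). opr6 was at 2.01 in every HKI1105 array and in both V-372 moderate arrays and at 7.83 and 8.19 in V-372 severe arrays (difference -6.00 ± 0.29, adjusted p = 4.25e-07).

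Glutathione transferases, which join glutathione to toxic and oxidised compounds, split in both directions. Of 35 probe sets 20 had a positive and 10 a negative difference (57.1% and 28.6%), with a median of 1.15. gst31 read 8.63 and 8.47 in HKI1105 severe and 5.36 and 4.86 in HKI1105 moderate arrays, against 3.93 and 3.48 in V-372 severe and 8.77 and 8.71 in V-372 moderate arrays (difference 8.47 ± 0.25, adjusted p = 1.74e-08), and its 3 other probe sets differed by 7.20 to 8.19. gst7 read 3.43 in both HKI1105 severe arrays and 2.18 and 2.16 in HKI1105 moderate arrays, against 2.63 and 2.40 in V-372 severe and 8.93 and 8.74 in V-372 moderate arrays, so that its difference of 7.58 ± 0.49 was mostly a fall to the floor in V-372 (adjusted p = 2.25e-06). gst30 rose by 6.04 log2 units in HKI1105, against a change of 0.33 in V-372 that did not pass the test (adjusted p = 0.283; difference 5.71 ± 0.30). Members of this family are close in sequence, and probe sets ending in x, s or a can bind several of them.

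Cytokinin genes had 14 positive and 0 negative differences of 21 (66.7% and 0%), with a median of 1.10. The list joins response regulators with cytokinin oxidases, which break the hormone down. The oxidase gene cko2 rose in both lines, by 5.00 in HKI1105 and 1.77 in V-372 (difference 3.23 ± 0.09), and CKX4b rose by 1.59 log2 units in HKI1105, whereas it fell by 2.03 in V-372 (difference 3.62 ± 0.30). The response regulator gene crr1 read 5.49 and 5.12 in HKI1105 severe and 2.99 and 2.88 in HKI1105 moderate arrays, against 2.82 and 2.81 in V-372 severe and 2.84 and 3.50 in V-372 moderate arrays (difference 2.73 ± 0.28, adjusted p = 4.87e-05).

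Of 10 probe sets for auxin transport and response 4 had a positive and 5 a negative difference (40% and 50%). The response factor gene ARF16 differed by 2.74 ± 0.25, while the binding protein gene abp1 differed by -2.06 ± 0.20 and moved in V-372 only by this test. The repressor gene IAA12 fell by 3.48 log2 units in HKI1105, and in V-372 it fell by 1.89 (difference -1.59 ± 0.32). Of the 3 probe sets for gibberellin and brassinosteroid genes, a gene described as gibberellin 20 oxidase differed by -3.18 ± 0.25 and the others did not pass the test.

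Most heat shock protein genes fell in both lines. Of 14 probe sets 8 fell and 3 rose in HKI1105 and 14 fell in V-372, and 11 had a positive and 1 a negative difference (median 0.82). A gene described as class I small heat shock protein, a chaperone that holds unfolded proteins, read 7.49 and 7.39 in HKI1105 severe and 10.14 and 10.36 in HKI1105 moderate arrays, against 5.30 and 5.03 in V-372 severe and 13.02 and 12.86 in V-372 moderate arrays (difference 4.97 ± 0.18, adjusted p = 6.14e-08). The fall was 2.81 log2 units in HKI1105 and 7.77 in V-372. The disaggregase gene hsp101 fell by 6.32 log2 units in HKI1105, and in V-372 it fell by 6.39, a difference of 0.06 that did not pass the test (adjusted p = 1). hsp18a was the exception, in that it fell by 5.43 log2 units in HKI1105, and in V-372 it fell by 2.98 (difference -2.45 ± 0.16).

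Most cellulose genes fell in both lines. Of 11 probe sets for cellulose and callose synthesis 7 had a positive and 1 a negative difference (median 0.94), 8 fell in HKI1105 and 9 in V-372, and none rose. The secondary wall cellulose synthase gene CesA12 read 10.30 and 10.29 in HKI1105 severe and 11.24 and 11.19 in HKI1105 moderate arrays, against 8.63 and 8.58 in V-372 severe and 10.64 and 10.67 in V-372 moderate arrays (difference 1.13 ± 0.06, adjusted p = 9.13e-07). In cesa10 and cesa11 the difference was 1.11 in each. Lignin genes had 5 positive and 1 negative difference of 7 (median 1.40). The methyltransferase gene CCOAOMT2 rose by 1.05 log2 units in HKI1105, whereas it fell by 2.17 in V-372 (difference 3.22 ± 0.19), and the alcohol dehydrogenase gene BM1, for the last step of monolignol synthesis, differed by 1.40 ± 0.11. The tubulin gene tub3 fell by 0.51 log2 units in HKI1105, and in V-372 it fell by 2.46 (difference 1.95 ± 0.14). In the list of tubulins and actins, 15 of 21 fell in V-372 and 14 in HKI1105. Among them 4 had a positive and 2 a negative difference (19.0% and 9.52%), below the shares of all probe sets (25.5% and 16.7%).

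Of the 10 calcium sensor and kinase probe sets 6 had a positive and 0 a negative difference (median 0.80). The calcium-dependent kinase gene CDPK1 rose by 0.87 log2 units in HKI1105, whereas it fell by 1.62 in V-372 (difference 2.49 ± 0.12). CBL8, a calcium sensor, differed by 1.28 ± 0.20 near the floor, and by 0.33, which did not pass the test, when low values were raised to 1 log2 unit above the lowest. Of 10 probe sets for nutrient transport 5 were at the floor in all 4 groups, and the 3 that passed had positive differences. The potassium transporter gene HAK1 read 8.96 and 9.0 in HKI1105 severe and 5.51 and 5.70 in HKI1105 moderate arrays, against 6.25 and 6.16 in V-372 severe and 7.67 and 7.60 in V-372 moderate arrays (difference 4.80 ± 0.12, adjusted p = 5.07e-09). The phosphate transporter gene pht1 rose by 3.31 log2 units in HKI1105, against a change of 0.29 in V-372 that did not pass the test (adjusted p = 0.257; difference 3.02 ± 0.25).

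Peroxidases of class III, which act on cell walls and phenolics, had 4 positive and 1 negative difference of 6. PER42 rose by 1.85 log2 units in HKI1105, whereas it fell by 3.04 in V-372 (difference 4.89 ± 0.27). PER66 was above the floor only in HKI1105 among the 4 groups, at 6.80 and 6.62 in HKI1105 severe and 9.73 and 10.32 in HKI1105 moderate arrays and at 2.01 to 2.10 in the V-372 arrays (difference -3.21 ± 0.23, adjusted p = 4.47e-06). Of 7 probe sets for senescence and protein turnover 7 rose in HKI1105, while in V-372 3 rose and 3 fell, and 3 had a positive and 3 a negative difference. The gene described as cysteine protease, which stood next to CPPS2 in its difference, read 7.37 and 7.45 in HKI1105 severe and 3.27 and 3.72 in HKI1105 moderate arrays, against 3.74 and 4.15 in V-372 severe and 12.38 and 12.33 in V-372 moderate arrays. It rose by 3.92 log2 units in HKI1105, whereas it fell by 8.41 in V-372 (difference 12.33 ± 0.22, adjusted p = 8.96e-10). A gene described as VQ motif protein, a family that binds WRKY transcription factors, rose by 4.39 in HKI1105, whereas V-372 dropped by 4.52 log2 units (difference 8.91 ± 0.16).

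**Figure D3:**
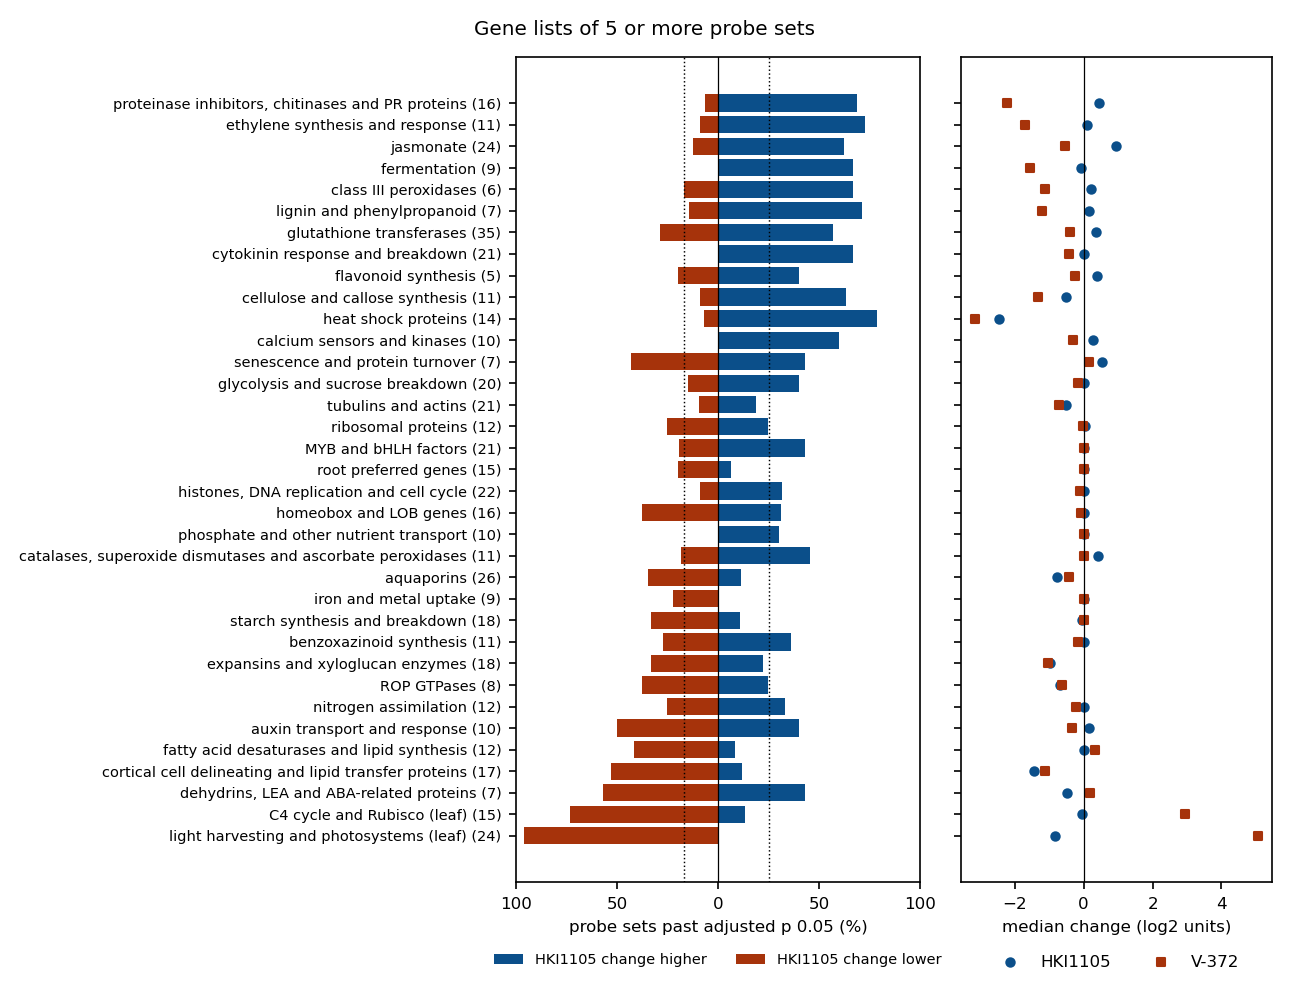
Gene lists with 5 or more probe sets (number in brackets). The left panel gives the share of each list with a positive (blue, right) or negative (red, left) difference at adjusted p under 0.05, in percent, with dotted lines at the shares of all probe sets (25.5% and 16.7%). The right panel gives the median change, severe minus moderate, in HKI1105 (blue) and V-372 (red) in log2 units, with light harvesting genes at -0.83 in HKI1105 and 5.06 in V-372.

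The most negative differences belonged to photosynthesis genes and to some others, such as lipid transfer protein genes and a catalase gene, through a rise in V-372 severe roots. Of the 24 light harvesting and photosystem probe sets 0 had a positive and 23 a negative difference, with a median of -5.44. In V-372 21 rose and 0 fell (median 5.06), and in HKI1105 0 rose and 13 fell (median -0.83). Of 15 probe sets for the C4 cycle and Rubisco 2 had a positive and 11 a negative difference, with a median of -3.01, and their summed level was 14.90 to 14.98 in HKI1105 severe, 15.03 to 15.04 in HKI1105 moderate, 16.89 to 16.90 in V-372 severe and 14.19 to 14.20 in V-372 moderate arrays.

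The thioredoxin m gene trm1, a chloroplast redox protein, had the most negative difference of all. It read 2.49 and 2.35 in HKI1105 severe and 3.91 and 4.76 in HKI1105 moderate arrays, against 12.23 and 12.22 in V-372 severe and 2.49 and 2.32 in V-372 moderate arrays. trm1 fell by 1.92 log2 units in HKI1105 and rose by 9.82 in V-372 (difference -11.74 ± 0.35, adjusted p = 1.75e-08), and another probe set of it differed by -7.81. A chlorophyll a/b-binding protein of type II followed, with 4.11 and 3.54 in HKI1105 severe and 4.95 and 5.51 in HKI1105 moderate arrays, against 12.27 and 12.25 in V-372 severe and 2.37 and 2.25 in V-372 moderate arrays (difference -11.35 ± 0.32, adjusted p = 1.31e-08). In both genes V-372 severe roots stood over 6 log2 units above the other groups of the comparison.

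The antenna protein gene lhcb4 read 2.63 and 2.78 in HKI1105 severe and 4.41 and 4.62 in HKI1105 moderate arrays, against 10.17 and 9.95 in V-372 severe arrays and 2.01 in both V-372 moderate arrays (difference -9.86 ± 0.12, adjusted p = 5.38e-11). Ferredoxin-1, the electron carrier of leaf chloroplasts, was at 2.01 to 2.20 in the other 6 arrays of the comparison and at 12.42 and 12.43 in V-372 severe arrays (difference -10.31 ± 0.53, adjusted p = 5.77e-07). Genes of the chloroplast genome differed too. The photosystem gene psbB read 4.51 and 5.08 in HKI1105 severe and 5.02 and 4.94 in HKI1105 moderate arrays, against 10.02 and 10.32 in V-372 severe and 4.47 and 5.37 in V-372 moderate arrays (difference -5.44 ± 0.59, adjusted p = 6.95e-05), and psbH differed by -5.18 ± 0.36.

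The enzymes that fix carbon in C4 leaves were measured too. The PEP carboxylase gene pep1 was at 2.01 in the HKI1105 severe and moderate arrays, at 11.08 and 11.24 in V-372 severe and at 3.21 and 2.20 in V-372 moderate arrays (difference -8.46 ± 0.42, adjusted p = 4.23e-07). A gene described as PEP carboxykinase was at 2.01 in the other 3 groups of the comparison and at 12.18 and 11.81 in V-372 severe arrays (difference -9.98 ± 0.16, adjusted p = 4.38e-10). The malic enzyme gene me3, for the bundle sheath enzyme that frees CO2, was well above the floor in V-372 moderate roots. It read 3.96 and 4.03 in HKI1105 severe and 7.55 and 6.65 in HKI1105 moderate arrays, against 12.56 and 12.95 in V-372 severe and 7.97 and 8.24 in V-372 moderate arrays, so that it fell by 3.10 log2 units in HKI1105 and rose by 4.65 in V-372 (difference -7.75 ± 0.36, adjusted p = 3.14e-07).

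Some members of these lists went otherwise. A probe set of lhcb6 read 8.29 and 8.32 in HKI1105 severe, 9.67 and 10.10 in HKI1105 moderate and 2.01 in all V-372 arrays. Its difference of -1.58 thus came from HKI1105, while another probe set of lhcb6 rose by 2.16 in V-372 (difference -3.82). The 3 light harvesting probe sets at the floor in V-372 severe roots were all of lhcb6. The carboxykinase gene pck2 and a second carbonic anhydrase gene had positive differences, of 2.40 and 4.25. A probe set of pdk1, another gene of the C4 list, was at the floor in all 4 groups, V-372 severe included. The carbonic anhydrase gene with the negative difference (-9.33 ± 0.17) was at 2.01 to 2.20 in the other 3 groups of the comparison. Outside these groups the HKI1105 control arrays held C4 transcripts too, with pep1 at 8.07 and 8.02, the described PEP carboxykinase at 6.82 and 6.56 and this carbonic anhydrase at 7.43 and 7.69.

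**Figure D4:**
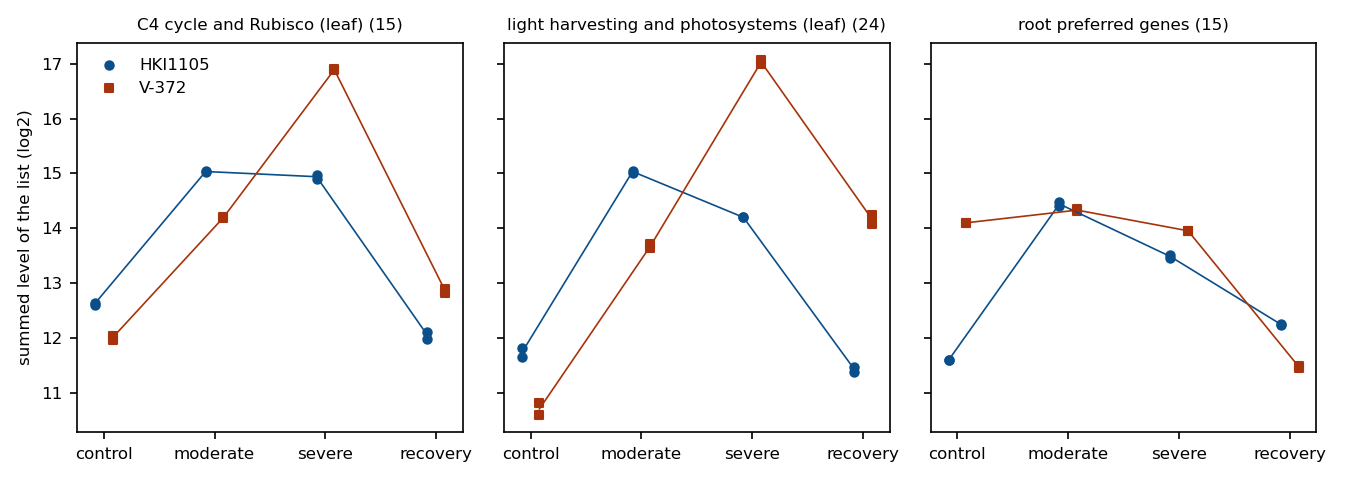
Summed level (log2 of the summed linear levels, vertical axis) of the C4 cycle and Rubisco, light harvesting and root-preferred lists in each array, by stage, with HKI1105 in blue and V-372 in red and lines through the group means. At severe stress the light harvesting list lies at 14.20 in HKI1105 and at 17.00 to 17.06 in V-372.

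Apart from the photosynthesis lists, further named genes had strongly negative differences, and the part of the raised leaf genes in these differences was not tested.

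Of 17 probe sets for lipid transfer and cortical cell delineating proteins 2 had a positive and 9 a negative difference (median -0.96), although more members fell than rose in each line: HKI1105 had 10 falls beside 1 rise, and V-372 had 9 falls beside 6 rises (median -1.13). The members named here had the largest differences. The lipid transfer protein gene plt2 was at 2.01 in HKI1105 severe, HKI1105 moderate and V-372 moderate arrays and at 10.91 and 11.03 in V-372 severe arrays (difference -8.96 ± 0.28, adjusted p = 2.64e-08). PLTP and a gene described as nonspecific lipid transfer protein precursor differed by -9.16 ± 0.46 and -10.00 ± 0.67, also from the floor. The homeobox genes ocl5 and ocl3, which are expressed in the outer cell layer of maize shoots and embryos, were at the floor in the same 3 groups and rose by 4.42 and 3.49 in V-372. MYB61, a transcription factor gene, rose there by 6.47, and the wax gene gl4a by 3.39.

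The catalase gene cat2 read 2.01 in both HKI1105 severe arrays, 2.12 and 3.76 in HKI1105 moderate, 10.07 and 10.24 in V-372 severe arrays and 2.01 in both V-372 moderate arrays (difference -9.08 ± 0.57, adjusted p = 1.96e-06). CAT3, another catalase gene, went the other way, with a rise of 2.57 in HKI1105 and 0.94 in V-372 (difference 1.63 ± 0.15). In the benzoxazinoid list, the glucosidase gene glu2 differed by -8.26 ± 0.25 from the floor, while BX14, an O-methyltransferase gene of this defence pathway, rose by 1.14 log2 units in HKI1105, whereas it fell by 5.10 in V-372 (difference 6.23 ± 0.31). Of the 11 probe sets of this list 4 had a positive and 3 a negative difference (36.4% and 27.3%).

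Of 18 probe sets for starch synthesis and breakdown 2 had a positive and 6 a negative difference (11.1% and 33.3%). The starch synthase gene Ss1 fell by 0.61 log2 units in HKI1105 and rose by 3.81 in V-372 (difference -4.42 ± 0.11), and the branching enzyme gene sbe1 rose by 2.77 in V-372, beside a change of -0.10 in HKI1105 that did not pass the test (difference -2.87 ± 0.16). Of 12 probe sets for fatty acid desaturases and lipid synthesis 1 had a positive and 5 a negative difference, with fad2 at -2.39 ± 0.13. The glutamine synthetase gene gln1 fell by 1.33 in HKI1105 and rose by 2.63 in V-372 (difference -3.96 ± 0.17), while the nitrate reductase gene nar fell in both lines (difference 2.69 ± 0.21). The ribosomal protein genes rpl29 and rpl19 rose by 4.65 and 4.01 in V-372 (differences -5.20 and -4.01). The other probe set of rpl19 differed by 0.08 and did not pass. The list of 12 had 3 positive and 3 negative differences (25% and 25%, beside 25.5% and 16.7% of all probe sets).

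Of 26 probe sets for aquaporins, the water channels of membranes, 3 had a positive and 9 a negative difference (11.5% and 34.6%). In HKI1105 17 fell and in V-372 13. The vacuolar channel gene tip2b read 10.81 and 10.73 in HKI1105 severe and 13.00 and 12.97 in HKI1105 moderate arrays, against 11.33 and 11.29 in V-372 severe and 11.76 and 11.70 in V-372 moderate arrays (difference -1.79 ± 0.06, adjusted p = 5.12e-08). The gene nip2b fell by 1.04 log2 units in HKI1105 and rose by 2.73 in V-372 (difference -3.77 ± 0.28), and tip4a rose in both lines, by 2.07 in HKI1105 and 4.24 in V-372. In tip2 the HKI1105 moderate arrays were far apart (3.63 and 5.82), and its difference of -2.67 ± 0.90 (adjusted p = 0.0406) passed narrowly. It was no longer past the threshold without HKI1105 moderate replicate 2 (-1.58), with low values raised (-1.72), without each of 6 other single arrays, with only the 8 arrays or without the HKI1105 control arrays.

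The dehydrin gene dhn1, for a protein that protects drying cells, rose in both lines. It read 10.81 and 10.68 in HKI1105 severe and 4.57 and 5.39 in HKI1105 moderate arrays, against 13.58 and 13.66 in V-372 severe and 4.93 and 5.19 in V-372 moderate arrays, a rise of 5.76 in HKI1105 and 8.56 in V-372 (difference -2.80 ± 0.62, adjusted p = 0.00572). The embryo protein gene Emb12 rose by 4.51 in V-372 alone by this test (difference -4.64 ± 0.21). Of 18 probe sets for expansins and xyloglucan enzymes 12 fell in HKI1105 and 11 in V-372. Among them 4 had a positive and 6 a negative difference (22.2% and 33.3%). expA4 fell by 1.72 log2 units in HKI1105 and rose by 1.36 in V-372 (difference -3.08 ± 0.51).

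The remaining lists had smaller shares or members on both sides. Of the 22 histone, replication and cell cycle probe sets 7 had a positive and 2 a negative difference (31.8% and 9.09%, beside 25.5% and 16.7% of all). MCM7, a helicase subunit, differed by 1.35 ± 0.26 and the cyclin gene cyc1 by -1.44 ± 0.13. The MYB and bHLH factors had 9 positive and 4 negative differences of 21, led on the positive side by myb8 (3.96 ± 0.23) and bHLH125 (3.78 ± 0.32). The homeobox and LOB genes had 5 and 6 of 16, with LOB15 at 4.15 ± 0.41 through a fall of 5.17 in V-372, the ROP GTPases 2 and 3 of 8, the flavonoid genes 2 and 1 of 5, and the catalases, dismutases and ascorbate peroxidases 5 and 2 of 11. Of 9 probe sets for iron and metal uptake 7 were at the floor in all 4 groups and the ferritin genes fer1 and fer2 differed by -0.74 and -0.37. The dehydrin and LEA list had 3 and 4 of 7, and the root-preferred list 1 and 3 of 15.

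The arrays outside the compared groups, from roots taken before waterlogging (day 28 after sowing) and after recovery (day 42), gave a view of the same genes. Recovery minus control differed between the lines for 4400 probe sets with HKI1105 higher and 4067 with HKI1105 lower (25% and 23.1%), and with each array centred on its median the counts were 3688 and 9265. Among the 623 probe sets with a positive moderate-to-severe difference, 139 were higher and 295 lower (22.3% and 47.4%, median -0.46), and among the 950 with a negative one 109 were higher and 556 lower (11.5% and 58.5%, median -1.06). The HKI1105 control arrays stand apart, with RNAs added before labelling at a higher level than in the other arrays, and the part of this in the recovery differences was not tested.

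CPPS2, which was chosen for its moderate-to-severe difference, read 8.13 and 8.14 in HKI1105 control and 9.56 and 9.66 in HKI1105 recovery arrays, and 8.52 in both V-372 control arrays and 10.48 and 10.56 in V-372 recovery arrays, so that its recovery difference was -0.53 ± 0.10 (adjusted p = 0.00166). For chn1 the levels after recovery were 14.55 and 14.49 in HKI1105, against 14.53 and 14.43 in V-372, and for tps6 they were 12.51 and 12.52 in HKI1105, against 12.47 and 12.52 in V-372. Neither recovery difference passed the test (adjusted p = 0.152 and 0.958). lhcb4 was at 2.01 in all control and recovery arrays of both lines.

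**Figure D5:**
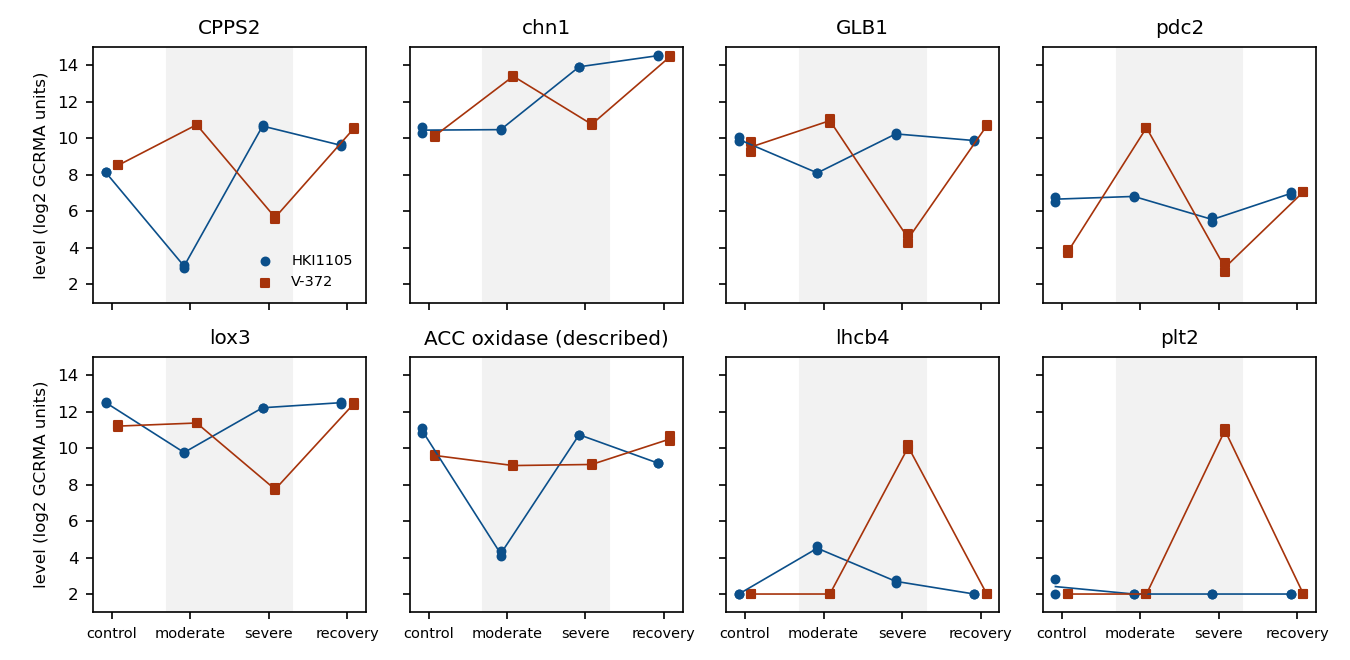
Levels (log2 GCRMA units, vertical axis) of 8 genes at control, moderate stress, severe stress and recovery, each point an array, with HKI1105 in blue and V-372 in red and lines through the group means. The shaded band holds the stages of the comparison. CPPS2 and chn1 cross between moderate and severe stress and lie closer together at recovery, and lhcb4 and plt2 peak in V-372 severe roots at 10.17 and 11.03.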

How the data were processed

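Root RNA was measured on Affymetrix maize arrays. The authors deposited log2 values made with GCRMA (version not given in the sources used here), which corrects the background from probe sequence, normalises across arrays and summarises each probe set. These values were used with no further scaling. Compression near the floor of 2.01 makes large changes from it uncertain in size, and 2 arrays per group limit the precision of every value. The values carry no depth.

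Arrays were grouped by their labels, which match each column by sample. One mean per group was fitted to all 16 arrays with limma (version 3.58.1 in R 4.3.3), as the study's methods put all arrays in 1 analysis. The fit had 8 residual and 0.46 prior degrees of freedom and a median residual SD of 0.10. The difference (HKI1105 severe minus moderate) minus (V-372 severe minus moderate) was tested as a contrast, with p-values adjusted by the Benjamini-Hochberg method over 17621 probe sets. A probe set, or a list member, passed at adjusted p under 0.05, and the study's thresholds (p of 0.001 or less and at least 5-fold) were used beside this. Errors after ± are standard errors. A group is at the floor where both its arrays lie within 1 log2 unit of 2.01, the lowest value.

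Names came from the platform annotation (1453 probe sets, 1377 matched to RefSeq), from RefSeq and from the gene models and descriptions of the study, and a gene was named here by a rule: 1 probe set a gene, the 12 most positive and 12 most negative differences among calls at the study's thresholds, the 4 with the strongest opposite movement in each direction, and up to 4 members of each of 37 lists with the largest differences that passed. Other list members are named where they go against their list or show its range, and these were chosen after their values were seen. They are adh1, sci1, wip1, hsp101, psbB, psbH, lhcb6, pck2, pdk1, the root-preferred genes at the floor and a second carbonic anhydrase. The members and lists were chosen with earlier results of these data known. Probe sets of near-identical genes cannot be separated.

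The code was tested on data simulated for this contrast, 50 probe sets at each true log2 difference of 0.5, 1, 2 and 4. It called 13, 24, 43 and 49 of these, and 5 of 17421 unchanged probe sets. The simulated noise was normal and independent between probe sets, and the changed ones were drawn from those with a mean above the floor. Real arrays can share deviations over many probe sets, so these counts do not give the error rate of the real data. Alternatives were another scaling, a filter, a raised floor, another variance model, only 8 arrays, the replicate number as a block, other p thresholds, leaving out each array and, chosen after seeing the data, leaving out the HKI1105 control arrays. No genome, promoter or protein sequences were used here.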

Additional observations from a re-analysis of the deposited data

Results flagged for a closer look

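The change between moderate and severe stress differed between the lines, by the contrast of limma itself, in each of the leading genes, and these differences, HKI1105 change minus V-372 change in log2 units, are listed here for a closer look. On the positive side stood CPPS2 (12.75), the described cysteine protease (12.33), chiA (11.92), the cytochrome P450 (11.66), the described PR protein 5 (11.02), tps6 (9.83), geb1 (9.14), the VQ motif protein (8.91), aox3 (8.87), GLB1 (8.59), gst31 (8.47) and pr5 (8.20).

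On the negative side stood trm1 (-11.74), the chlorophyll a/b-binding protein of type II (-11.35), ferredoxin-1 (-10.31), the nonspecific lipid transfer protein precursor (-10.00), the described PEP carboxykinase (-9.98), lhcb4 (-9.86), carbonic anhydrase (-9.33), PLTP (-9.16), cat2 (-9.08), plt2 (-8.96), fdx2 (-8.50), pep1 (-8.46), me3 (-7.75) and Cab-m7 (-3.66). Among these, me3 and Cab-m7 were above the floor in all 4 groups. Cab-m7, a chlorophyll-binding protein gene, read 10.20 and 10.16 in HKI1105 severe and 11.97 and 12.11 in HKI1105 moderate arrays, against 12.47 in both V-372 severe arrays and 10.71 and 10.63 in V-372 moderate arrays. Groups of 2 arrays are too small for a test of single stray arrays.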

How the results depend on the processing

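The numbers of probe sets with a positive and a negative difference stayed within 1.5 times of the values given under every alternative run. Without each of the 8 arrays in turn they were 3982 to 4565 and 2651 to 2944 by adjusted p, and 613 to 627 and 924 to 948 at the study's thresholds. The rises and falls were 2329 to 3179 and 1922 to 2389 in HKI1105, and 2787 to 3177 and 4382 to 5082 in V-372. Of the 623 and 950 calls, all kept their sign and an adjusted p under 0.05 in each alternative that tested them, except 2 of the 950 with low values raised, and the filter on low values left 605 and 816 to be tested. With the replicate number as a block the counts were 4401 and 2914 (621 and 946 at the study's thresholds), but the numbers do not pair the arrays: the deviations of same-numbered arrays correlated at -0.16 to 0.10. With each array centred on its median, the recovery difference was lower in HKI1105 for 9265 probe sets, against 4067. The medians taken off were 6.91 and 6.98 in the HKI1105 control arrays. They were 7.08 to 7.16 in the HKI1105 recovery, V-372 control and V-372 recovery arrays. Centring thus shifted the recovery difference of every probe set, also of those at the floor, and the part of this shift in the count was not tested. No difference of the 146 named probe sets turned its sign. CBL8 (low values raised), tip2, MCM6, cyc3 and fer2 (the last 4 mainly without single arrays) lost their calls. The balance of positive and negative differences turned in the expansin list with the filter and in the homeobox list with the filter or without V-372 severe replicate 2, and the median of the 3 gibberellin probe sets was -0.02 with quantile normalization, against 0.08. The number of arrays and the floor, not depth, limit these values.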
